A study of Mus musculus with 32 samples.

Results

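The comparison described here set 5 Ddr1 knockout tumours against 4 wild-type tumours that were taken from C57BL/6 mice at day 4, which are 9 of the 32 samples of the series. The libraries were taken by their labels, as those titled day 4, and every gene of their table was considered. This comparison and the gene lists below were chosen with earlier results of these data known. The tumours grew from E0771, a mouse mammary carcinoma cell line of C57BL/6 origin, either wild type or knockout for Ddr1. Per the series' design text they had first grown in Rag1-/- mice, which lack mature T and B cells, and were then moved into C57BL/6 hosts, which have them. The day is read from the titles, and the labels do not say from which event it was counted, nor whether the knockout tumours came from 1 derivative line or several. Other groups used below are 5 wild-type and 5 knockout E0771 tumours grown in Rag1-/- hosts and 3 wild-type and 2 knockout E0771 cultures. The comparison asks what loss of DDR1 in the tumour cells changed once the tumour sat in a host with an adaptive immune system. Nothing in the labels ties a library to a mouse, and p-values therefore reflect the spread among these libraries only, which may be technical.

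DDR1 is the discoidin domain receptor 1. It is a tyrosine kinase on the surface of epithelial and carcinoma cells that is activated by collagen rather than by a soluble growth factor. It binds fibrillar and basement membrane collagens and takes part in cell adhesion, collagen alignment and matrix remodelling. A tumour piece holds cancer cells together with host fibroblasts, vessels, fat, immune cells and whatever tissue was cut with it, and bulk RNA sums all of them. In such data fewer cells of a type and less RNA per cell cannot be told apart.

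Depth was 20148955 to 28600639 reads per library, and 14105 of 25277 genes had a mean normalized count of 10 or more and were tested. Levels below are normalized counts, which are reads divided by 1 size factor per library, and log2 differences are knockout minus wild type on log2(normalized count + 1). Epithelial markers bore out the labelled carcinoma only in part. Krt8, a keratin of simple epithelia, stood at 11133 to 15031 in wild-type and 7866 to 16386 in knockout tumours, but its partner Krt18 was at 5.15 to 24.0, Epcam at 9.27 to 19.0 and Cldn4 at 0 to 6.99 in wild-type tumours. The libraries did not fall into 2 groups by genotype. Knockout tumours 1, 2 and 4 were each other's nearest libraries, with correlations of 0.976 to 0.98, while knockout tumour 5 was nearest to wild-type tumour 3 (0.975) and knockout tumour 3 to wild-type tumour 2 (0.957). Results that rest on knockout tumours 1, 2 and 4 are given with and without them, a choice made after seeing the data.

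Ddr1 itself checked the labels. Wild-type tumours 1 to 4 had 3091, 4195, 3844 and 3121 normalized counts, and knockout tumours 1 to 5 had 660, 615, 728, 685 and 1181. All 5 knockout tumours were below all 4 wild-type tumours, and the residual level was highest in knockout tumour 5. Ddr1 (GRCm38 chromosome 17, 35681567 to 35704621, minus strand) went from 3563 ± 547 (SD, n = 4) to 774 ± 231 (SD, n = 5). In log2 units it fell by 2.23, with an SE of 0.19 and a limma adjusted p of 0.00366.

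In addition to Ddr1, 3 genes fell and 1 rose. Together these 5 were 0.0354% of the genes tested, at an adjusted p under 0.05 in limma with Benjamini-Hochberg adjustment. Espn, which encodes espin, a protein that bundles actin filaments, stood at 450, 570, 581 and 441 in wild-type and at 108, 79.3, 97.1, 122 and 145 in knockout tumours. It fell by 2.21 (SE 0.20, limma adjusted p = 0.00366), and its gene lies on chromosome 4, 152120331 to 152152371, minus strand. Prr19, which encodes a proline-rich protein, stood at 438, 487, 733 and 482 against 40.2, 81.6, 89.2, 137 and 73.3. The groups were far apart for both genes.

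Prr19 fell by 2.73 (SE 0.32, limma adjusted p = 0.0199) and lies on chromosome 7, 25301411 to 25304132, plus strand. Nptx1 (chromosome 11, 119538719 to 119547753, minus strand) encodes neuronal pentraxin 1, a secreted protein best known at synapses. Its values were 4240, 6010, 6180 and 4581 for the wild type and 1909, 1314, 2256, 2418 and 1866 for the knockout, and it fell by 1.44 (SE 0.19, limma adjusted p = 0.0471). Syt16 (chromosome 12, 73997661 to 74273267, plus strand) encodes a protein of the synaptotagmin family, whose better known members act in vesicle fusion. The 4 wild-type tumours had 10.8, 12.4, 4.81 and 16.0 normalized counts and the 5 knockout tumours 103, 97.8, 116, 144 and 145, and it rose by 3.43 (SE 0.34, limma adjusted p = 0.00642). No library of either genotype overlapped the other for any of the 5 genes.

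**Figure D1:**
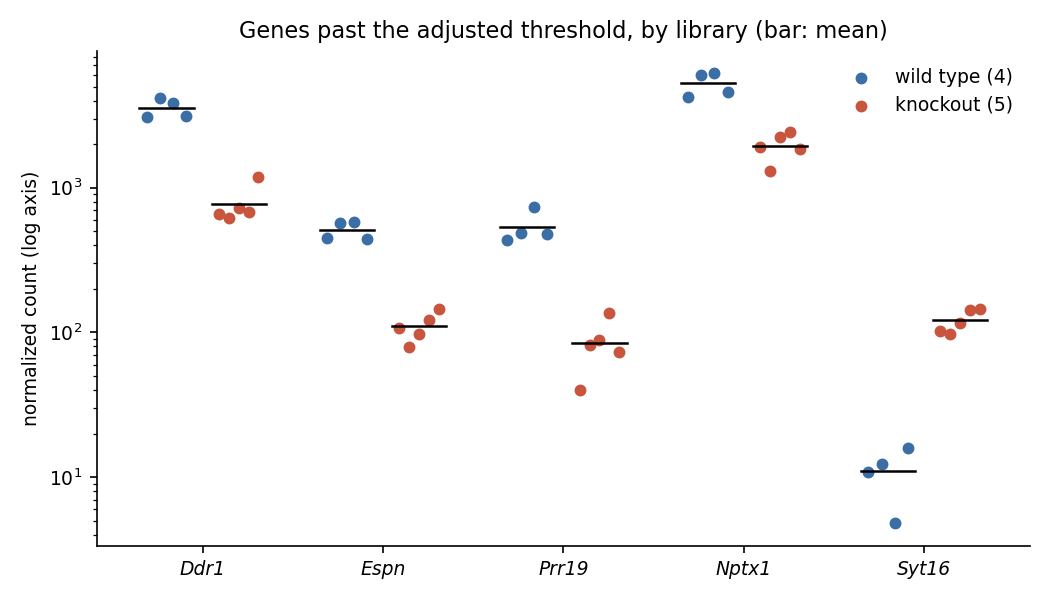
Normalized counts (log axis) of Ddr1, Espn, Prr19, Nptx1 and Syt16 in each of 4 wild-type (blue) and 5 knockout (red) tumours, with a bar at the group mean. For each gene all knockout points lie on one side of all wild-type points, with Ddr1 at 615 to 1181 in knockout and 3091 to 4195 in wild-type tumours.

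These calls differed in how much they rested on single libraries. Prr19 did not pass without wild-type tumour 2, 3 or 4 (limma adjusted p = 0.12, 0.102 and 0.116) or knockout tumour 2 (0.0636). Nptx1 did not pass without those 3 wild-type tumours (0.199, 0.107 and 0.157) or knockout tumour 1 (0.186). Nptx1 also missed the threshold with TMM scaling (0.0518), limma without the trend (0.069), voom (0.0528) and edgeR (0.0574), and in all did so in 11 of 25 alternatives. Ddr1, Espn and Syt16 passed with any 1 library left out. Without knockout tumours 1, 2 and 4, which leaves 2 knockout tumours, limma called 0 genes at an adjusted p under 0.05, with 1314 at an unadjusted p under 0.05. Ddr1 then had a log2 difference of -1.93 (adjusted p = 0.177).

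Espn, Prr19 and Syt16 also differed in the same direction in the other settings. In Rag1-/- hosts Espn stood at 98.7, 89.0, 109, 112 and 65.0 in wild-type and at 68.0, 63.7, 54.6, 60.7 and 83.7 in knockout tumours, and fell by 0.50 (limma adjusted p = 0.0433). In culture it stood at 284, 220 and 278 against 50.3 and 52.1. Each setting has its own normalization, so these levels are set side by side only. Syt16 was 0 to 1.14 in wild-type tumours of Rag1-/- hosts and 160 to 183 in knockout tumours there.

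Nptx1 was lower in knockout at day 4 and in culture, but the groups overlapped in Rag1-/- hosts. It was not among the genes whose effects differed between hosts at an adjusted p under 0.05, while Espn and Syt16 were. In Rag1-/- hosts it stood at 6692, 4411, 5135, 6725 and 4361 in wild-type and at 6338, 5538, 2570, 5996 and 5356 in knockout tumours, with a log2 difference of -0.12 (limma adjusted p = 0.711). In culture it was 1062, 833 and 755 against 389 and 260 (log2 difference of -1.46, limma adjusted p = 0.0564). The day 4 knockout range was 1314 to 2418, and levels are not ranked between settings, as each has its own normalization. Espn, Prr19, Nptx1 and Syt16 belong to a list of 19 genes that an earlier analysis of these samples had picked as marks of the knockout derivatives, so that list is no independent evidence. Among the others on it, Tmem145 stood at 36.3, 30.9, 54.1 and 49.9 against 3.74, 4.62, 10.2, 11.9 and 1.11 (log2 difference of -2.82, limma adjusted p = 0.109).

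Beyond the 5 calls, differences were many but small against the spread. At an unadjusted p under 0.05, 941 genes were higher in knockout tumours (6.67% of those tested) and 1175 were lower (8.33%). Groups did not overlap for 270 genes that were higher (1.91%) and 543 that were lower (3.85%). These shares are the background for the counts of list members below. As the lists were chosen with earlier results of these data known, those counts are descriptions. Differences above 2-fold were mostly on one side, with 498 genes higher and 65 lower at an unadjusted p under 0.05. The filter is a mean over both genotypes, which genes high in knockout tumours alone also pass. The 2-fold split was not counted without knockout tumours 1, 2 and 4. There, 645 genes were higher and 669 lower at an unadjusted p under 0.05 with no fold limit. At an adjusted p under 0.1 there were 17 genes higher and 24 lower.

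The most negative differences by the naming rule, after Prr19, Ddr1 and Espn, were those of Car11, Gnao1, Crhbp, Pax2, Nptx1, Adamtsl4 and Btc, of which only Nptx1 passed the adjusted threshold. Adamtsl4, which encodes a secreted matrix protein linked to fibrillin microfibrils, stood at 1576, 2494, 3112 and 2468 against 1010, 757, 660, 1026 and 990 (log2 difference of -1.42, limma adjusted p = 0.0661). Btc, the gene of the EGF receptor ligand betacellulin, stood at 708, 1081, 1266 and 979 against 336, 362, 298, 639 and 311 (log2 difference of -1.40, limma adjusted p = 0.0829). Crhbp encodes a protein that binds corticotropin-releasing hormone and ranged over 70.1 to 153 against 25.2 to 46.6. Gnao1, a G protein alpha subunit, ranged over 123 to 217 against 30.5 to 107.

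Genes with the most positive differences by the same rule were, among those reported and apart from Syt16, genes of epithelia, and none of them passed the adjusted threshold. Krt14, a basal keratin, stood at 11.8, 11.3, 15.6 and 15 in wild-type and at 350, 239, 7536, 255 and 275 in knockout tumours (log2 difference of 5.23, limma adjusted p = 0.0829). Its partner Krt5 had 4 reads in all wild-type tumours together and stood at 807, 336, 6203, 296 and 3.33 in knockout tumours. Knockout tumour 3 was highest for both keratins, and knockout tumour 5 was near the wild-type level for Krt5 but not for Krt14. Perp, a desmosome-associated protein and p53 target, had 3 reads over all wild-type tumours and stood at 106, 57.8, 993, 65.7 and 24.4 in knockout tumours. Serpinb5, Fxyd3 and Clca3a2 were likewise at 0 to 5.89 in wild-type tumours.

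Keratinocyte and skin markers had a median log2 difference of 3.06 over 14 tested members, where the median of all genes was 0.00. At an unadjusted p under 0.05, 9 of the 14 were higher and 0 lower, against 6.67% and 8.33% of all genes. For 5, all higher, the groups did not overlap, against 1.91% of all genes. Some members, such as Krt5 and Perp, were very low in wild-type tumours and passed the filter through knockout tumours. With no filter the median was 2.07 over 20 members. Their summed level was 1028 to 1754 in wild-type tumours and 2026 to 25355 in knockout tumours, with the top value in knockout tumour 3. That tumour held Krt17 at 3938, Krtdap at 539 and Dsc3 at 248, where every other library was at or below 344, 11.8 and 3.60. Defining genes of the cornified layer such as Krt1, Krt2 and Lor were too low to be tested. Without knockout tumours 1, 2 and 4 there were 6 of 14 higher at that p.

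Luminal epithelial markers had a median of 2.81 over 20 tested members. Of these, 12 were higher and 0 lower at an unadjusted p under 0.05, against 6.67% and 8.33% of all genes. Krt18 stood at 17.7, 5.15, 24.0 and 18.0 in wild-type and at 565, 1048, 39.5, 725 and 223 in knockout tumours (log2 difference of 4.43, limma adjusted p = 0.109). Epcam, an adhesion molecule of simple epithelia, stood at 14.7, 9.27, 14.4 and 19.0 against 431, 411, 137, 303 and 24.4. These were the 2 of 20 luminal markers whose groups did not overlap, against 1.91% of all genes.

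Some luminal markers, chosen after their values were seen, were high in knockout tumours 1, 2 and 4 only. Prlr, the prolactin receptor, stood at 323, 275 and 427 in knockout tumours 1, 2 and 4, and at 0 to 11.8 elsewhere. Elf5, a transcription factor of milk-producing cells, stood at 29.9, 43.9 and 43.8 in the same 3 and at 0 to 1.2 elsewhere. The milk protein gene Csn3 stood at 217, 415 and 335 there and at 2.26 to 23.9 elsewhere. Others were not, such as Cldn4 at 139 in knockout tumour 3. Without these 3 tumours, 11 luminal markers remained testable and 3 were higher at an unadjusted p under 0.05. Leaving out single libraries gave 8 to 16, with 8 without wild-type tumour 2 or knockout tumour 1, 2 or 4.

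Adipocyte markers were highest in knockout tumours 2 and 4. Their summed level was 178896 and 132585 in these 2, and 14666 to 32173 in wild-type tumours. Adipoq, the adiponectin gene, stood at 839, 6.18, 86.5 and 20.0 in wild-type and at 514, 10229, 468, 6271 and 54.4 in knockout tumours. With no filter the list's median was 1.51 over 17 members. Over the 15 tested it was 2.38, with 8 higher at an unadjusted p under 0.05 (all genes: 6.67%). Without knockout tumours 1, 2 and 4, 0 of 15 were. The 8 fell to 1 without wild-type tumour 2 and to 2 without wild-type tumour 3 or 4 or knockout tumour 2 or 4.

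Vessel genes were also high in knockout tumours 1, 2 and 4. Endothelial markers had a median of 1.24 over 16, all above 0. Of these, 12 were higher at an unadjusted p under 0.05, against 6.67% of all genes. Plvap, a protein of fenestrated vessels, stood at 379, 1363, 1743 and 1064 in wild-type and at 4413, 5538, 1658, 5264 and 1528 in knockout tumours. Wild-type tumour 1 was the lowest library for all 16 genes, while the mean log2 level of the list in knockout tumours 3 and 5 (9.30 and 9.33) lay within the range of wild-type tumours 2 to 4 (9.09 to 9.48). The 12 became 5 without wild-type tumour 1 or knockout tumour 1 or 4, 6 without knockout tumour 2, 7 without wild-type tumour 2, and 0 without the 3 knockout tumours.

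Smooth muscle and pericyte markers had a median of 1.13 over 11, with 8 higher at an unadjusted p under 0.05 (all genes: 6.67%). Acta2, smooth muscle actin, stood at 3927, 4630, 5611 and 3264 against 8344, 7479, 4860, 7825 and 10279, so that only knockout tumour 3 overlapped the wild-type range. Rgs5, a pericyte gene, stood at 263 to 736 in wild-type tumours, at 2235, 2739 and 3612 in knockout tumours 1, 2 and 4, and at 536 and 412 in knockout tumours 3 and 5. The count stayed at 7 to 9 with any 1 library left out and was 0 of 11 without the 3 knockout tumours.

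Skeletal muscle genes marked other libraries. Acta1, the skeletal muscle actin, stood at 113, 97.9, 13086 and 2581 in wild-type and at 100, 103, 2374, 53.9 and 24737 in knockout tumours. Wild-type tumour 3 and knockout tumour 5 therefore carried the most muscle RNA, and the list's median log2 difference was -0.38 with 0 of 18 at an unadjusted p under 0.05. Leaving both out, also a choice made after seeing the data, gave 13 genes higher and 2 lower at an adjusted p under 0.05.

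A red cell gene also set the genotypes apart. Alas2, the enzyme that starts heme synthesis in red cell precursors, stood at 47.1, 140, 57.7 and 52.9 in wild-type and at 744, 1723, 279, 1260 and 307 in knockout tumours (log2 difference of 3.31, limma adjusted p = 0.0829). Slc4a1, an anion exchanger of the red cell membrane, stood at 7.85, 16.5, 7.21 and 4.99 against 25.2, 60.8, 22.6, 29.2 and 26.7 (log2 difference of 1.76, limma adjusted p = 0.159). Neither gene overlapped between the groups. The 6 globin genes on the list are listed at 0 in every library, so the most abundant red cell transcripts gave no reading.

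**Figure D2:**
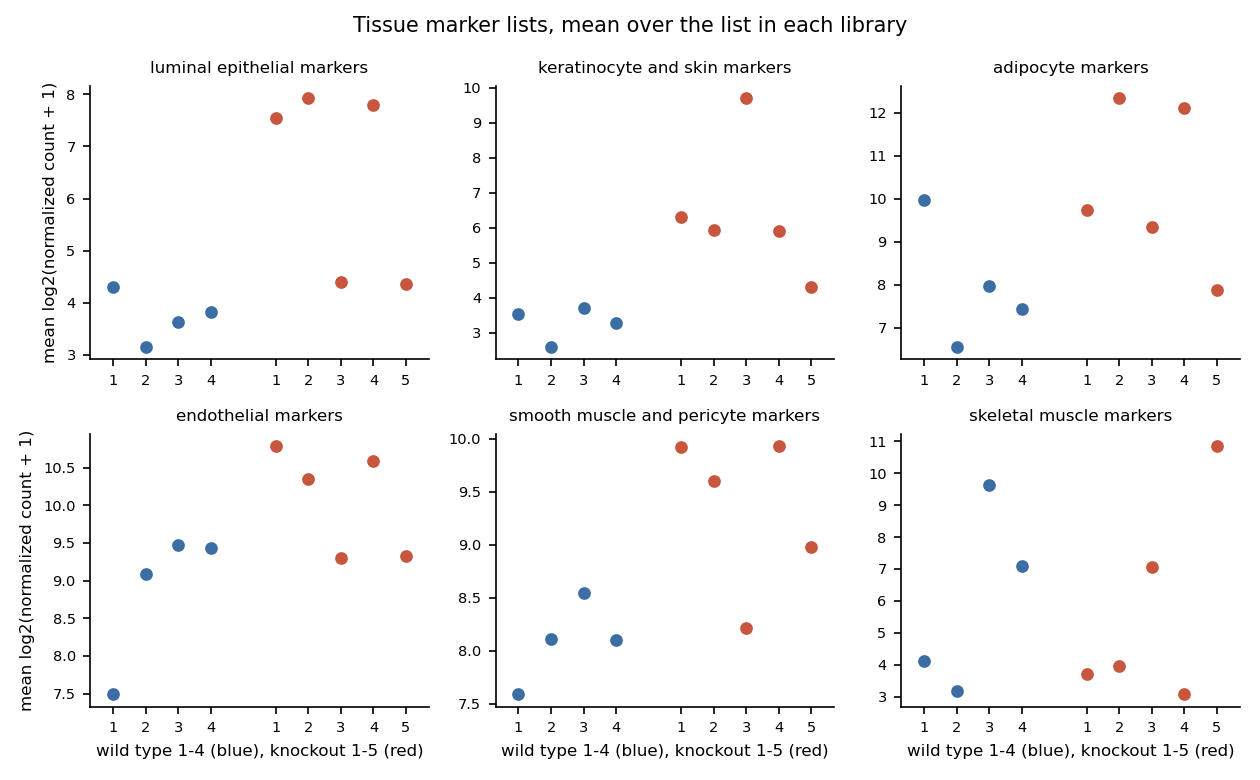
Mean log2(normalized count + 1) over the tested members of 6 tissue marker lists in wild-type tumours 1 to 4 (blue) and knockout tumours 1 to 5 (red). Knockout tumours 1, 2 and 4 are highest for luminal markers (7.55, 7.92 and 7.79), knockout tumour 3 for keratinocyte markers (9.69), and wild-type tumour 3 and knockout tumour 5 for skeletal muscle markers (9.63 and 10.85).

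Hypoxia and glycolysis genes were lower together. Hypoxia-inducible factors accumulate when oxygen is scarce and switch on glycolytic enzymes, glucose transporters and angiogenic signals through a short DNA core. All 21 members had a log2 difference below 0, from -1.0 to -0.35 with a median of -0.60, and 19 had an unadjusted p under 0.05 against 8.33% of all genes. None passed the adjusted threshold. For 10 of the 21 the groups did not overlap, against 3.85% of all genes. The summed level was 436032 to 488025 in wild-type tumours and 271637, 238037, 293548, 339269 and 442077 in knockout tumours 1 to 5.

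Car9, a carbonic anhydrase that serves as a marker of tumour hypoxia, stood at 2068, 2643, 2541 and 2117 in wild-type and at 963, 912, 1003, 1428 and 1710 in knockout tumours (log2 difference of -1.0, SE 0.20, limma adjusted p = 0.109). Egln3, an oxygen-sensing prolyl hydroxylase that is itself induced by hypoxia, stood at 16568, 21069, 19483 and 19912 against 11371, 7721, 11336, 13765 and 15145. Vegfa, the main angiogenic factor, stood at 12053, 17358, 12443 and 19932 against 9511, 4401, 7488, 10364 and 11243. Car9, Egln3 and Vegfa were each below the wild-type range in all 5 knockout tumours.

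Ndrg1, a stress-induced gene, had a log2 difference of -0.79, and Bnip3, a mitophagy receptor, one of -0.71, again without overlap. Among glycolytic enzymes, Pgam1 stood at 3469, 3570, 2857 and 3503 against 2200, 1544, 2296, 2540 and 2537, and Gpi1 at 26714, 28360, 31878 and 29018 against 15851, 15223, 17756, 20089 and 26322. Slc2a1, the glucose transporter, stood at 43543 to 52399 against 16553 to 44748, with an overlap through knockout tumour 5 alone. Knockout tumour 5 also lay within or above the wild-type range for Ldha, Eno1, Aldoa and Tpi1. Muscle RNA, which brings glycolytic transcripts of its own, was highest in that tumour, and its part in these values was not tested. Luminal and endothelial markers were highest in knockout tumours 1, 2 and 4, and adipocyte markers in knockout tumours 2 and 4. The part of such tissue in the lower hypoxia values was likewise not tested.

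Without knockout tumours 1, 2 and 4, the median was -0.47 and 10 of 21 members were lower at an unadjusted p under 0.05. Without wild-type tumour 3 and knockout tumour 5, all 21 were lower at that p with a median of -0.73. Leaving out any 1 library gave 14 to 20. DESeq2 on recovered reads called 11 of the 21 lower at an adjusted p under 0.05, edgeR 0. In Rag1-/- hosts the same list had a median of -0.07, and none of 20 members compared had an effect that differed between the hosts at an adjusted p under 0.05.

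**Figure D3:**
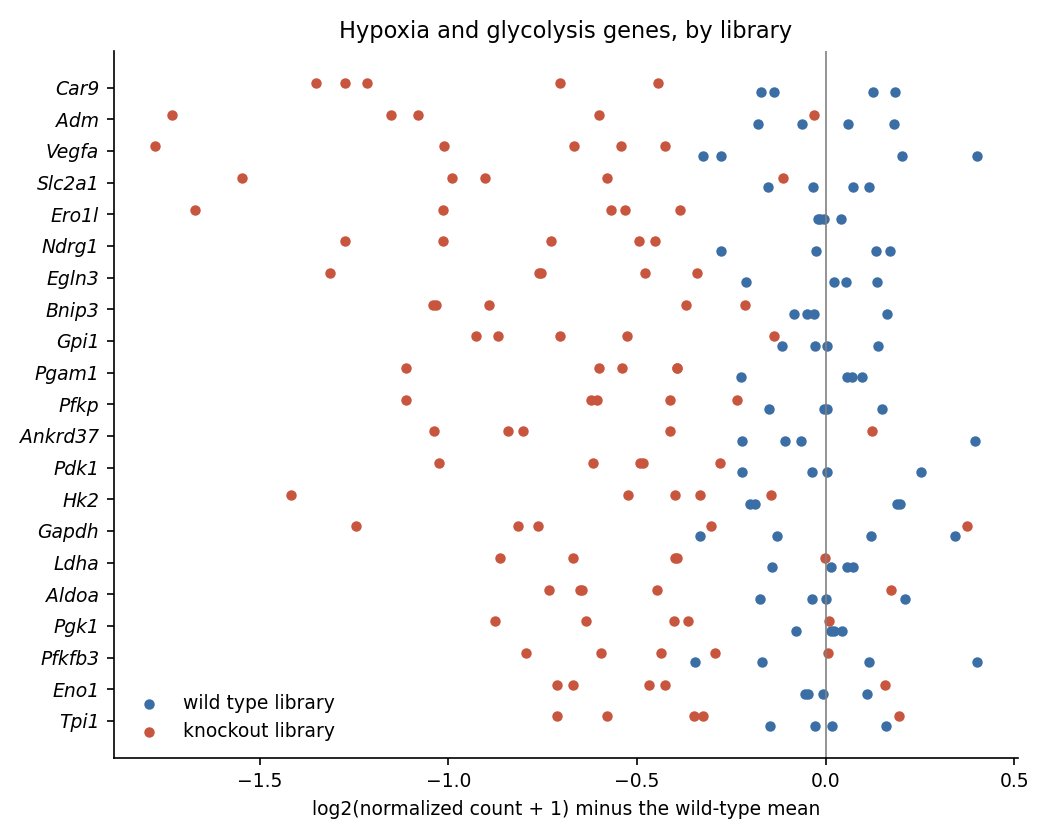
Each of the 21 hypoxia and glycolysis genes in every library, as log2(normalized count + 1) minus the gene's wild-type mean (blue wild type, red knockout). Genes are ordered from Car9 (difference of -1.0) to Tpi1 (-0.35), and most knockout points lie left of the wild-type points.

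The upstream sequence of the 5 hypoxia members of smallest p with 1 listed start site is shown because hypoxia-inducible factors bind DNA through a known core. Each line gives the 250 bases before the start, 5′ to 3′ on the gene's strand, from RefSeq (GRCm38.p6), with capitals marking the core ACGTG or GCGTG or its other-strand forms CACGT and CACGC.
Car9: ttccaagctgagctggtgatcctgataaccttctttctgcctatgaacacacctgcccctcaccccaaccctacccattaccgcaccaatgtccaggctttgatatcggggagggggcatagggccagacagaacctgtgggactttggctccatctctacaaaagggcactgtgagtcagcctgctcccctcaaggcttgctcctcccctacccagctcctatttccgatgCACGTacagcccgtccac
Egln3: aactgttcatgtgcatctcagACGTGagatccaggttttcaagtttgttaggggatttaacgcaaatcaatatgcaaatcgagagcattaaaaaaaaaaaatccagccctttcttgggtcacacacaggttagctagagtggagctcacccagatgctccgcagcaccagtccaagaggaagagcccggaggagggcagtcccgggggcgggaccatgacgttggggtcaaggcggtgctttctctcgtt
Pgam1: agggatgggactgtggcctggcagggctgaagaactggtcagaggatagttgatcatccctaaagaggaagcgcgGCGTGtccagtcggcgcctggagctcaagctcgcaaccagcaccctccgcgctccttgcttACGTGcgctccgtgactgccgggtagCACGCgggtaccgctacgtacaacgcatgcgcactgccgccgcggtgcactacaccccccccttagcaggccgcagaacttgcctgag
Gpi1: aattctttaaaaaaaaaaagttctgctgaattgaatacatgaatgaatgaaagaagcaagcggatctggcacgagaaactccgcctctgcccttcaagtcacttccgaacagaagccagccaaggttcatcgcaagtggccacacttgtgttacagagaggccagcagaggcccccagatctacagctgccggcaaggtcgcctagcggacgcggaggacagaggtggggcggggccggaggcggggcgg
Bnip3: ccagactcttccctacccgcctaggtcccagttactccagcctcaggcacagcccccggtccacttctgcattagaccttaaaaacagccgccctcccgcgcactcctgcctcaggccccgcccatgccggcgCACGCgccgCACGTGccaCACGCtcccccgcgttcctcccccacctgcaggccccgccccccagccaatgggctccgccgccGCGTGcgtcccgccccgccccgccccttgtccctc
These windows lie at chr4:43506776-43507025, plus strand (Car9), chr12:54203875-54204124, minus strand (Egln3), chr19:41911621-41911870, plus strand (Pgam1), chr7:34230337-34230586, minus strand (Gpi1) and chr7:138909507-138909756, minus strand (Bnip3). Bnip3 had 5 cores, of which CACGT and ACGTG overlap in 1 palindrome, Pgam1 had 3, Car9 and Egln3 had 1 each and Gpi1 had 0. Of the 20 members with an entry, 18 (90.0%) had a core in at least 1 window, against 59.4% of 11113 tested genes with an entry and 38.6% of all 32851 windows. Ndrg1 had no entry. The list was chosen as genes of hypoxia and glycolysis, so its higher share is no result about these tumours. The 38.6% counts windows, while the other shares count genes. A core is a match of letters and not a bound site.

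Of 19 collagen processing genes, 5 were lower and 0 higher at an unadjusted p under 0.05, against 8.33% and 6.67% of all genes. For 4 the groups did not overlap, against 3.85% of all genes, and the list's median was 0.00. Plod2, the lysyl hydroxylase of collagen telopeptides, stood at 11948, 14834, 12296 and 12689 in wild-type and at 9163, 5888, 8198, 9319 and 9765 in knockout tumours (log2 difference of -0.63, limma adjusted p = 0.153). P4ha1, P4ha2 and Plod1, prolyl and lysyl hydroxylases, also did not overlap between groups, with differences of -0.44, -0.68 and -0.27. P3h3 was the fifth, with a difference of -0.36 and an overlap, and 9 of the 19 had differences above 0. The 5 became 3 without wild-type tumour 1 or 3 or knockout tumour 3. Lox, which cross-links collagen, ranged over 1526 to 5911 against 1477 to 8432.

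None of the 11 fibrillar collagens set the groups fully apart. Col1a1 stood at 80697, 32392, 24232 and 28978 in wild-type and at 107058, 77923, 40306, 108271 and 36649 in knockout tumours (log2 difference of 0.86, SE 0.44, limma adjusted p = 0.388). Wild-type tumour 1 and knockout tumours 1, 2 and 4 had the high values, as they did for Col1a2 and Col3a1. Fibrillar collagens had a median of 0.46 over 11, with 1 higher at an unadjusted p under 0.05 (Col27a1). Basement membrane genes had a median of 0.50 over 18, with 4 higher and 1 lower (all genes: 6.67% and 8.33%). Among these Col4a6 had 2 reads in all wild-type tumours and stood at 44.9, 25.4, 2.26, 24.7 and 13.3 in knockout tumours, and Lamb2 stood at 3227 to 4017 against 2377 to 3155.

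Of the collagen receptors other than Ddr1, none passed the adjusted threshold. Ddr2, the relative of Ddr1 found in mesenchymal cells, stood at 5122, 6176, 3929 and 5333 against 4750, 2579, 4426, 3690 and 3985 (log2 difference of -0.42, SE 0.19, limma adjusted p = 0.337). Itga1, the integrin alpha 1 subunit, was highest in knockout tumours 1 and 4, at 785 and 512, and its gene overlaps others on the same strand. Itgb1, the shared beta subunit, ranged over 32378 to 36502 against 22890 to 32444. Matrix proteases and their inhibitors showed 3 of 30 higher and 4 lower at an unadjusted p under 0.05 (all genes: 6.67% and 8.33%). Plaur, the urokinase receptor, stood at 7808, 9537, 10988 and 11290 against 6960, 6387, 7601, 6222 and 7126.

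Immediate early genes, which stimulated cells switch on within minutes, had 7 of 15 lower at an unadjusted p under 0.05 (all genes: 8.33%). Their median was -0.29, and 5 did not overlap between the groups, against 3.85% of all genes. Ier3 stood at 11410, 14071, 15600 and 14589 against 8757, 7249, 8322, 10593 and 9407 (log2 difference of -0.65, limma adjusted p = 0.115). Myc, a transcription factor that drives growth, stood at 16495, 16436, 17021 and 17872 against 10770, 11422, 13290, 11464 and 14781. Fos, Egr1 and Nr4a1 had differences of -0.08, -0.07 and 0.01. Without knockout tumours 1, 2 and 4 the count was again 7.

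Unfolded protein response genes had 6 of 15 lower at that p, against 8.33% of all genes, and a median of -0.24. Those without overlap were 4 of 15, against 3.85% of all genes. They were Dnajb9, Chac1, Trib3 and Ddit3, the last of which encodes the stress transcription factor CHOP. Ddit3 stood at 1079, 727, 1688 and 1034 in wild-type and at 544, 561, 349, 679 and 709 in knockout tumours (log2 difference of -0.97, limma adjusted p = 0.173). Among TGF-beta genes, Tgfbi, a matrix protein named for its induction by TGF-beta, stood at 18193, 25462, 28359 and 24368 against 15942, 14270, 13606, 15083 and 14186 (log2 difference of -0.70, limma adjusted p = 0.106). Tgfb1, Ltbp1 and Smad7 also did not overlap, which made 4 of 15 with Tgfbi, against 3.85% of all genes. Of the 15, 6 were lower and 1 higher at an unadjusted p under 0.05, against 8.33% and 6.67% of all genes.

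The p53 targets included 5 lower and 2 higher of 14 at that p, against 8.33% and 6.67% of all genes. Gdf15, a secreted stress factor, stood at 520, 474, 776 and 829 against 336, 343, 269, 383 and 391, while Cdkn1a, the p21 gene, overlapped at 8583 to 11766 against 6014 to 11404. Cholesterol synthesis and uptake genes had a median of 0.45 with 4 of 16 higher, and 2, 1 and 2 without wild-type tumour 2 or 4 or knockout tumour 2. Cell cycle genes had a median of 0.26 with 2 of 24 higher and 1 lower (all genes: 6.67% and 8.33%). That 2 became 9 without wild-type tumour 2, 4 without knockout tumour 4, and 0 without wild-type tumour 1, 3 or 4 or knockout tumour 3. Respiratory chain genes had a median of 0.14 with 1 of 18 higher.

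Of the T cell markers, Thy1, which fibroblasts and other stromal cells also express, made up most of the summed level, at 2630, 1362, 1087 and 755 for the wild type against 4064, 3577, 1395, 3764 and 1000 for the knockout. High enough to be tested were 10 of 15 T cell markers, and Cd3e and Cd8a were not, at 0.998 to 14.7 and 0.998 to 5.89 in wild-type and 1.13 to 22.3 and 2.22 to 11.3 in knockout tumours. The T cell median was 0.39 with 0 of 10 at an unadjusted p under 0.05 in either direction. With 1 library left out the median was 0.13 to 0.81, with 0 to 2 members higher and 0 lower at that p. It was 0.81, with 2 of 9 higher, without wild-type tumour 1, and array weights gave 2 of 10 higher. Cd4 stood at 31.4, 10.3, 15.6 and 17.0 against 23.4, 87.0, 16.9, 46.6 and 25.5 (log2 difference of 0.92, SE 0.52, limma adjusted p = 0.43). Wild-type tumour 1 and knockout tumours 1, 2 and 4 had the higher mean levels of this list.

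Effector genes of cytotoxic lymphocytes had a median of -0.05, with 0 of 11 at that p. Gzmb, granzyme B, stood at 186, 130, 73.3 and 238 in wild-type and at 163, 169, 65.5, 116 and 44.4 in knockout tumours (log2 difference of -0.54, SE 0.47, limma adjusted p = 0.62). Prf1, the perforin gene, ranged over 30.0 to 164 against 26.7 to 125. Ifng, the interferon gamma gene, was at 0 to 10 in all 9 libraries and was not tested. Natural killer markers had a median of -0.02 with 1 of 10 lower (all genes: 8.33%). Regulatory T cell and checkpoint genes had one of -0.07 with 1 of 10 lower. Differences in lymphocyte genes were thus not detectable in the main fit at these levels and this spread. The T cell list depended on single libraries.

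Genes induced by interferon gamma had a median of 0.63 over 18. Of these, 8 were higher and 0 lower at an unadjusted p under 0.05, against 6.67% and 8.33% of all genes. Gbp4, a guanylate-binding protein gene that overlaps its relatives Gbp8 and Gbp9 on the same strand, stood at 115, 51.5, 109 and 80.8 against 292, 255, 115, 249 and 112. Ido1, an enzyme that degrades tryptophan, stood at 48.6, 153 and 122 in knockout tumours 1, 2 and 4 and at 0.998 to 2.22 in the other 6. Without these 3 tumours 0 of 17 were at that p and the median was 0.06. The count was 2 without wild-type tumour 2 or 4 or knockout tumour 1, 2 or 4, and 3 without wild-type tumour 3. Luminal and endothelial markers were also highest in knockout tumours 1, 2 and 4, and adipocyte markers in knockout tumours 2 and 4. Their part in this was not tested.

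Type I interferon response genes had 25 of 26 differences above 0 with a median of 0.34. Only 2 were higher at an unadjusted p under 0.05 (all genes: 6.67% higher and 8.33% lower). Without knockout tumours 1, 2 and 4 the median was -0.22. The count was 7 without knockout tumour 3, 4 without wild-type tumour 1 and 1 without wild-type tumour 2, 3 or 4 or knockout tumour 1, 2 or 4. Class II presentation genes had a median of 0.39 and 0 of 10 at that p, and class I genes one of -0.02 and 1 of 14. Macrophage and monocyte markers had a median of 0.40 with 0 of 18 higher and 1 lower, and were highest in wild-type tumour 1 and knockout tumours 1, 2 and 4. Without wild-type tumour 1 there were 5 higher and a median of 0.77, without knockout tumour 3 there were 4, and the median was as low as 0.15 without knockout tumour 4. Neutrophil markers had a median of -0.38 over 7, where the 1 that was higher at an unadjusted p under 0.05 was Ltf, which mammary epithelium also makes.

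**Figure D4:**
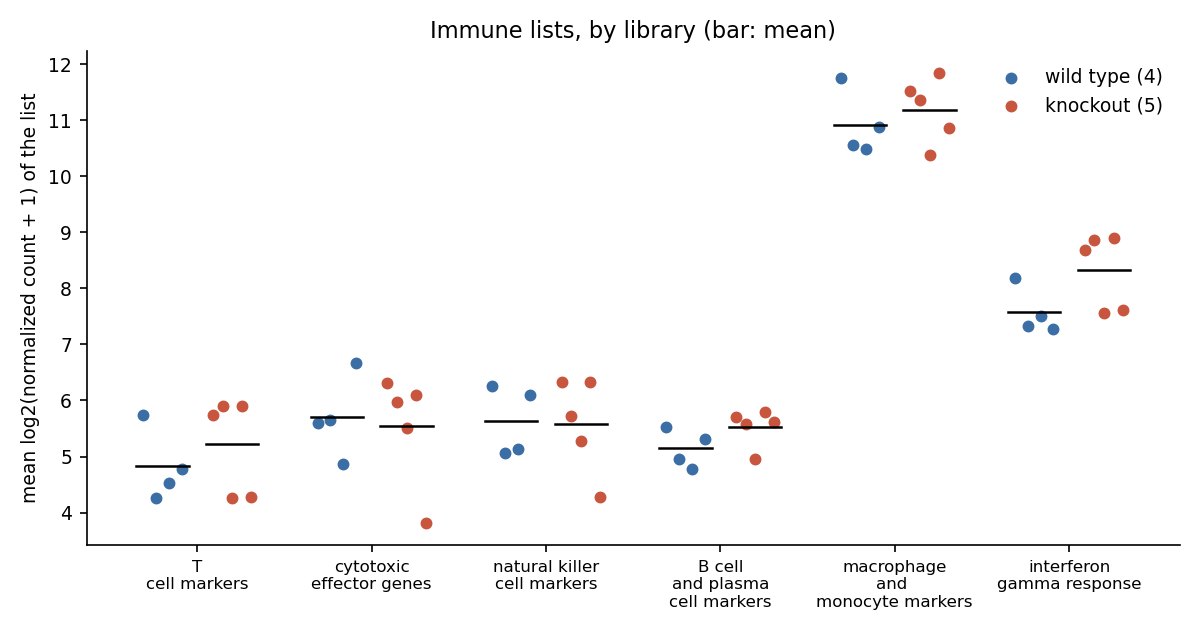
Mean log2(normalized count + 1) over the tested members of 6 immune lists in each library, with 4 wild-type (blue) and 5 knockout (red) tumours from left to right and a bar at the group mean. The groups overlap for every list, and the interferon gamma response is highest in knockout tumours 1, 2 and 4 (8.68, 8.86 and 8.89).

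The knockout effect was next compared with that in Rag1-/- hosts, gene by gene over 12396 genes tested in both tables. In Rag1-/- hosts 2904 genes passed the adjusted threshold, which was 22.7% of those tested there, and the median standard error was 0.08 against 0.18 at day 4. The effects differed for 113 genes (0.912%), being lower at day 4 for 108 and higher for 5. Of the 113, 93 had risen in the knockout tumours of Rag1-/- hosts. Of 2861 genes changed in Rag1-/- hosts and compared, 53.9% had the same direction at day 4.

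The 5 of smallest p with a lower effect at day 4 were Slc9a2, Chn1, Map2k6, Rnf165 and Syt16, all of which had risen in Rag1-/- hosts. Wild-type levels of Syt16 were 4.81 to 16.0 at day 4 but 0 to 1.14 in Rag1-/- hosts, so its difference rests on few reads. Slc9a2, a sodium-proton exchanger, stood at 145, 110, 126, 246 and 134 in wild-type and at 1263, 1009, 716, 1106 and 1010 in knockout tumours there. The 4 wild-type levels at day 4 were 1113, 1423, 1283 and 1670, and the 5 knockout levels 1432, 610, 1408, 1066 and 1228. The difference of the effects was -3.07 on the log2 scale (adjusted p = 0.0143). The wild-type cultures, titled E0771-P, EV and Ctrl, differed several-fold among themselves at 1424, 303 and 151, and the knockout cultures were at 2026 and 793. The 3 tables were normalized separately, the labels do not say which wild-type derivative the tumours came from, and host and derivative cannot be told apart here.

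Chn1, the gene of the Rac regulator chimaerin 1, repeated this. It stood at 46.4 to 89.0 in wild-type and 254 to 340 in knockout tumours of Rag1-/- hosts, and at 184 to 332 and 217 to 296 at day 4 (difference of -2.36, adjusted p = 0.0143). Map2k6, a kinase upstream of p38, stood at 7.22 to 21.6 and 51.5 to 106 in Rag1-/- hosts, and at 133 to 230 and 71.6 to 141 at day 4 (difference of -3.55, adjusted p = 0.0163). Rnf165, a ubiquitin ligase gene, stood at 19.3 to 49.3 and 103 to 183 in Rag1-/- hosts and at 152 to 262 and 124 to 218 at day 4. In the E0771-P, EV and Ctrl cultures Chn1 was at 270, 145 and 110, Map2k6 at 117, 38.0 and 23.4 and Rnf165 at 127, 25.0 and 31.5, so that E0771-P was the highest each time. For Slc9a2, Chn1, Map2k6 and Rnf165 every wild-type value at day 4 was above every wild-type value in Rag1-/- hosts. These values were normalized separately, so this sets levels side by side only. Slc9a2, Chn1 and Map2k6 are on the list of knockout derivative marks chosen on these samples. Of 21 genes that had risen above 4-fold in Rag1-/- hosts, 17 had a log2 difference under 1 at day 4, and 12 of the 21 differed.

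The 5 genes with the opposite difference were Krt18, Acta2, Jup, Ptk7 and Nfib. Jup, which encodes plakoglobin of desmosomes and adherens junctions, had day 4 levels of 400, 337, 634 and 499 without and 854, 913, 876, 1106 and 795 with the knockout. In Rag1-/- hosts it ranged over 435 to 706 in wild-type and 323 to 545 in knockout tumours. Acta2 was at 1309 to 1723 and 896 to 1410 in Rag1-/- hosts, where it fell by 0.50. Krt18 was at 5.43 to 40.3 in wild-type and 4.12 to 17.7 in knockout tumours of Rag1-/- hosts. None of the 5 passed without any 1 of the 4 day 4 wild-type tumours, without day 4 knockout tumour 2 or 4, or without the mean-variance trend, where 0 genes differed in that direction. The number of genes that differed was 2 to 193 with 1 library left out. It was 3, 4 and 2 without day 4 wild-type tumour 2, 3 or 4, 3 without knockout tumour 4, and 4 where limma used no mean-variance trend.

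**Figure D5:**
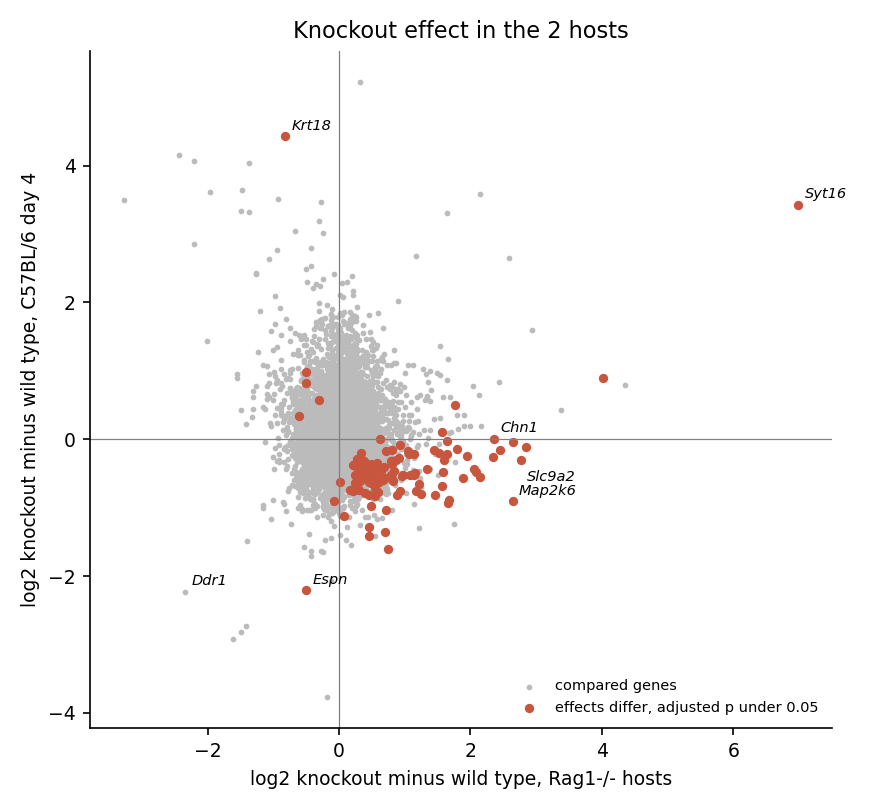
Log2 knockout minus wild type in Rag1-/- hosts (x axis) and in C57BL/6 hosts at day 4 (y axis) for 12396 genes, with the 113 whose effects differ at an adjusted p under 0.05 in red. Most red points lie at positive x and near or below 0 on y, such as Slc9a2 (2.77 and -0.30), while Ddr1 lies low on both (-2.34 and -2.23).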

How the data were processed

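RNA-seq libraries of 9 tumours were used, with 10 tumours of Rag1-/- hosts and 5 cultures set beside them. Trizol RNA and Illumina's TruSeq stranded mRNA kit were used, per the labels' protocols. CASAVA, TopHat, DESeq2 and mm10 are named in the submitters' processing notes, with no version or role. Counter, annotation and strand setting: not given in the sources used here. The authors deposited values of the signal kind, reads divided by 1 size factor per library. Dividing by each library's step gave whole reads for 100% of values within 0.01. The authors' 20 columns of means, fold changes and p-values were not used.

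Genes with a mean of 10 or more were tested with limma 3.58.1 (R 4.3.3, mean-variance trend, 2-sided) on log2(normalized count + 1), with Benjamini-Hochberg adjustment. On this scale folds of low genes come out too small. Effects in the 2 hosts were compared by their difference over the combined limma standard error, against a t distribution with the smaller degrees of freedom. Symbols were matched directly (20109) or by RefSeq synonym (2179), and positions came from GENCODE on GRCm38. Of 103 named genes 14 overlap another protein-coding gene, 3 of them on the same strand, and their reads are uncertain. The members and the 43 lists were chosen with earlier results of these data known. Named genes were Ddr1, all genes called, the 10 largest differences in each direction (mean of 50 or more, no overlap, p under 0.01), the 2 members of smallest p per list and 5 genes per direction of the host difference. Other list members were chosen after their values were seen. Alternatives were other pseudocounts, filters, scalings and limma settings, count models of the recovered reads (edgeR 4.0.16, DESeq2 1.42.0), a replicate block, and leaving out single libraries. A run of the fit on simulated counts used a single fixed spread and no variation shared between genes. That run does not show how the fit performs on these tumours. Tables and plots used Python 3.11.15 with pandas 2.3.3 and matplotlib 3.10.9. A few genes that the rule names are not reported here.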

Additional observations from a re-analysis of the deposited data

Results flagged for a closer look

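In 146 groups of libraries, from 30 genes and 43 lists in each genotype, 15 had 1 library far from the others by Dixon's criterion. Its chance rate of about 1 in 20 holds for independent, normal values. The genes were picked on these data and lists share members, so the 15 cannot be set against that rate. Ddr1 was at 1181 in knockout tumour 5, against 615 to 728 in the other knockout tumours. Krt14 was at 7536 in knockout tumour 3, against 239 to 350. Fxyd3 was at 2.22 in knockout tumour 5, against 63.2 to 151. Car11 was at 21.5 in knockout tumour 1, against 46.3 to 60. Btc was at 639 in knockout tumour 4, against 298 to 362, and Nfib at 650 in knockout tumour 3, against 939 to 1040. In wild-type tumour 1 Serpinb5 was at 5.89 and Clca3a2 at 3.93, both at 0 in the other 3 wild-type tumours. With 3 values at 0, any value above 0 is flagged.

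Among mean log2 levels of lists, wild-type tumour 1 was apart for dendritic cell markers (7.32, against 5.34 to 5.67), type I interferon response genes (10.11, against 9.33 to 9.43) and fibroblast markers (12.57, against 11.1 to 11.2). Wild-type tumour 4 was apart for myeloid-attracting chemokines (9.39, against 8.59 to 8.68). Knockout tumour 3 was lowest for B cell markers (4.96, against 5.58 to 5.79) and highest for cholesterol synthesis genes (10.33, against 9.40 to 9.62). Knockout tumour 4 was highest for lymphatic endothelial markers (6.70, against 5.95 to 6.15).

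The knockout effect differed between hosts for 13 of the named genes, given as the day 4 effect minus that in Rag1-/- hosts on the log2 scale. It was lower at day 4 for Syt16 (-3.56), Map2k6 (-3.55), Slc9a2 (-3.07), Rnf165 (-2.61), Chn1 (-2.36), Crhbp (-2.35), Adamtsl4 (-1.87) and Espn (-1.71). It was higher for Krt18 (5.25), Jup (1.5), Acta2 (1.32), Ptk7 (0.95) and Nfib (0.89). The size given for Syt16 rests on wild-type values of 0 to 1.14 in Rag1-/- hosts, near the floor.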

How the results depend on the processing

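The count of 5 changed genes was 9 with no filter, 88 with array weights and 689 with DESeq2 on recovered reads, against 4 with edgeR. With 1 library left out it was 3 to 50, with 3 without wild-type tumour 2, 3 or 4, 13 without wild-type tumour 1, 11 without knockout tumour 3 and 50 without knockout tumour 5. It was 0 without knockout tumours 1, 2 and 4 (limma, 1314 at an unadjusted p under 0.05, against 2116) and 15 without wild-type tumour 3 and knockout tumour 5, both chosen after seeing the data. The count at an unadjusted p under 0.05 was 1361 to 2439 with 1 library left out, lowest without wild-type tumour 2. The count of 813 genes without overlap was then 898 to 1535, since fewer libraries overlap less often.

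Labels number the tumours, and the main fit took them as unpaired. Deviations of libraries of the same number had correlations of 0.14, -0.17, 0.11 and -0.16 over 4 pairs. Those of different number ran from -0.55 to 0.6, so these few values cannot decide whether the numbers pair the tumours. With the replicate block, which leaves out knockout tumour 5, 2 genes changed, Ddr1 (adjusted p = 0.0309) and Ly6d, which is not among the 5, while Espn (0.0774), Prr19 (0.0774), Syt16 (0.0841) and Nptx1 (0.155) did not pass. The host effects then differed for 0 genes (limma, 1664 at an unadjusted p under 0.05).

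The 113 genes differing between hosts were 58 with no filter, 361 with array weights, 4 without the trend and 2 to 193 with 1 library left out. Beside the libraries named in the results, it was 75 without day 4 wild-type tumour 1 and 35, 28, 32 and 59 without day 4 knockout tumour 1, 2, 3 or 5. In Rag1-/- hosts it was 69, 34, 43, 193 and 65 without wild-type tumour 1 to 5, and 29, 53, 183 and 32 without knockout tumour 1 to 4. The cause was not tested. With voom, 3 of 20 luminal and 2 of 15 adipocyte markers were higher at an unadjusted p under 0.05, against 12 and 8.

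No gene past the threshold changed sign, and the reversals reported were of genes that never passed it. Without knockout tumours 1, 2 and 4 the log2 difference was -0.15 for Thy1, -0.06 for Cd22, -0.25 for Tpsb2, -0.16 for Kit, -0.31 for Cxcl12 and 0.98 for Tcap. Xcr1 was at -0.07 with edgeR, Tcap at 0.32 with edgeR and DESeq2, and Lyve1 at 0.09 with array weights and at -0.61 to 0.22 with 1 library left out. Chn1 was at -0.14 with quantile normalization, -0.02 with the replicate block, -0.01 with edgeR and DESeq2, and -0.13 to 0.15 with 1 library left out. Several T cell genes stood near the level of single reads, and others spread widely between tumours.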
